A study of Mus musculus with 3 samples.

Results

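The genes described are 10 smooth muscle and contractile genes, Acta2, Tagln, Myl9, Cnn1, Cnn2, Tpm1, Tpm2, Cald1, Des and Actc1, chosen by gene name on the array. They are 10 of the 27962 gene names there. Every probe carrying one of these names was kept, which gave 19 of the 41174 probes on the array, in 37 spots per array. RNA labelled KO came from Dnmt3a-/- mouse neural stem cells (NSCs) and carried Cy3, and RNA labelled WT came from wildtype NSCs and carried Cy5. Both had been derived from embryonic stem cells, passed through neurospheres and grown attached with EGF and bFGF, and the 3 arrays held 3 biological replicates of each. The dye assignment was the same on every array, so dye and genotype cannot be told apart for any single probe. The labels do not say how many stem cell lines or clones lay behind the replicates, so the p-values measure only the spread between these samples.

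Smooth muscle contracts when myosin, switched on by phosphorylation of its regulatory light chain, pulls on actin filaments. Tropomyosin, calponin, caldesmon and transgelin lie along these filaments and regulate or stabilise them, and desmin forms intermediate filaments that tie the contractile units together. Many of these genes are targets of serum response factor (SRF), which binds a DNA element called the CArG box together with myocardin-family cofactors. Cells outside muscle also use several of them in stress fibres and the cell cortex.

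Dnmt3a, the DNA methyltransferase whose loss defines the KO, went against its label. Its 3 probes had log2 ratios of labelled KO over WT of 0.61 ± 0.03, 0.76 ± 0.04 and 0.99 ± 0.08 (SD, n = 3). The deleted part of Dnmt3a is not named in the labels, and a probe outside it checks nothing. Groups are therefore called by their labels throughout, and exchanged labels would turn every direction given here. All 10 NSC markers examined were well above background in both channels, some of them near the lower end of the scale. By the brightest probe of each, 2 were higher, 6 lower and 2 short of the threshold in the RNA labelled KO. Of all gene names taken in the same way, 21.9% were higher and 24.8% lower. Across the 26627 tested probes, the ratios of pairs of arrays correlated at r = 0.887 to 0.914, and probes are not independent replicates.

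The probe sequences that carry the main differences are given 5′ to 3′ in lower case, with positions on mouse build mm7 as the array files give them. The 3 Acta2 probes are shown because they name 1 gene and gave different ratios. Positions on chromosome 19, minus strand, were chr19:33949738-33952992 for the first, chr19:33942803-33942862 for the second and chr19:33942440-33942499 for the third. The first probe's ends lay 3255 bases apart on the genome, so its 60 bases cross at least 1 exon junction. Only the first 30 bases are printed of the other Acta2 probes. The Des probe, at chr1:75593023-75593248 on the plus strand, is shown as the single member probe that was lower, and its ends lay 226 bases apart.
Acta2 A_51_P450957: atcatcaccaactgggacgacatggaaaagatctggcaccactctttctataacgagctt
Acta2 A_52_P420504: gttttgtggatcagcgcctccagttccttt
Acta2 A_52_P210078: acactgacttcacagctagagtgactattt
Des A_51_P335969: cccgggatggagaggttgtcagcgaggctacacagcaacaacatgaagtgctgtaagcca

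Most of the contractile genes had at least 1 probe that was higher in the RNA labelled KO, led by probes of Acta2 and Actc1, and desmin was lower. Of the 19 probes, 18 could be tested. Of these, 11 were higher, 1 was lower and 6 did not pass the threshold (limma, Benjamini-Hochberg adjusted p under 0.05 over all tested probes). Over all tested probes 44.3% passed in either direction, 20.7% higher and 23.6% lower. The median log2 ratio was 0.28 over the 18 member probes and -0.01 over all tested probes. By gene, 8 genes had a higher probe, Des had a lower probe, and Cnn1 had neither, a count that favours genes with several probes. By the brightest probe of each gene, 6 of the 10 were higher, Acta2 not among them, against 21.9% of all gene names. In Acta2, Tagln, Tpm1 and Cald1, 1 or more probes passed and others did not. All 18 tested probes were well above background on every array, in the KO and the WT channel alike. The split depended on the loess step: with median centring alone, 3 member probes were higher and 5 lower, and over all tested probes 1160 were higher and 13071 lower around a median of -0.22.

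**Figure D1:**
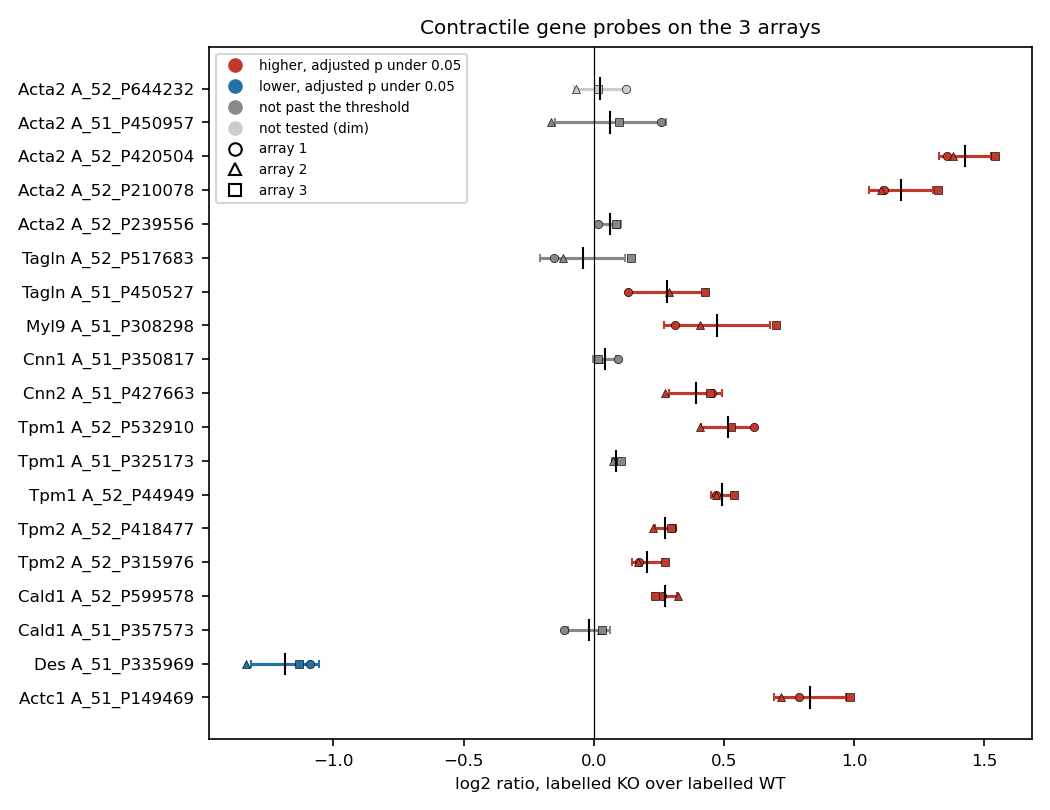
Log2 ratio of labelled KO over WT (x axis) for each probe of the 10 genes (rows); symbols are the 3 arrays, the tick is their mean and the bar is the SD. The 2 Acta2 probes at 1.43 and 1.18 and Actc1 at 0.83 lie to the right, Des at -1.19 lies alone to the left, and the small ratios around 0.2 to 0.5 turn in part with median centring.

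Acta2 encodes smooth muscle alpha-actin, the actin isoform of differentiated smooth muscle and of contractile fibroblasts. Probe A_52_P420504 had normalized log2 intensities of 11.93, 12.03 and 12.21 in the RNA labelled KO, against 10.58, 10.65 and 10.67 in the RNA labelled WT. The groups did not overlap, and the RNA labelled KO was higher on every array. The log2 ratios were 1.36, 1.38 and 1.54, with a mean of 1.43 ± 0.10 (SD, n = 3), or 2.69-fold higher (limma, adjusted p = 1.7e-07). This probe was spotted 10 times per array, and the SD between its spots within an array was 0.063 to 0.067. Of all tested probes, 26 (0.0976%) were at least as high. The neighbouring probe A_52_P210078, 363 bases downstream, had log2 intensities of 7.75, 7.76 and 8.09 in the RNA labelled KO, against 6.64, 6.65 and 6.77 in the RNA labelled WT. It was also higher on every array without overlap, at 1.18 ± 0.12 (limma, adjusted p = 7.5e-07), and its size ran between 0.28 with the background fitted on all spots and 1.97 with the scanner's processed signals.

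The other Acta2 probes did not pass the test. The exon-spanning probe A_51_P450957 had log2 intensities of 12.73, 12.58 and 12.78 in the RNA labelled KO, against 12.47, 12.74 and 12.69 in the RNA labelled WT. The groups overlapped, and the array of replicate 2 ran opposite to the other two. Its log2 ratio was 0.06 ± 0.21 (limma, adjusted p = 0.48), with -0.46 under median centring (adjusted p = 0.0031) and 0.18 without replicate 2 (adjusted p = 0.012). Probe A_52_P239556, the most downstream, was near the lower end of the scale, at 6.27, 6.32 and 6.35 in the RNA labelled KO and 6.25, 6.23 and 6.26 in the RNA labelled WT. Its ratio was 0.06 ± 0.04 (limma, adjusted p = 0.18). Probe A_52_P644232, the most upstream, did not rise well above background anywhere, in either channel, and was not tested. In the array annotation, A_52_P239556 and A_52_P644232 each carry a transcript record other than the one that the remaining Acta2 probes share.

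Actc1 encodes cardiac alpha-actin, the main sarcomeric actin of heart muscle. Its probe A_51_P149469 had log2 intensities of 9.04, 8.94 and 9.21 in the RNA labelled KO, against 8.25, 8.22 and 8.23 in the RNA labelled WT. All 3 values labelled KO lay above all 3 labelled WT. The log2 ratio was 0.83 ± 0.14 (SD, n = 3), or 1.78-fold higher (limma, adjusted p = 7.3e-06), and 166 tested probes (0.623%) were at least as high. Its ratio was 0.42 with the background fitted on all spots and 0.49 with median centring, and it passed the threshold under both. The skeletal paralog Acta1, from the striated muscle list, was at 0.63 ± 0.10 (limma, adjusted p = 1.4e-05). The enteric smooth muscle paralog Actg2 was at 0.33, -0.08 and 0.21 on the 3 arrays and did not pass (limma, adjusted p = 0.10).

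**Figure D2:**
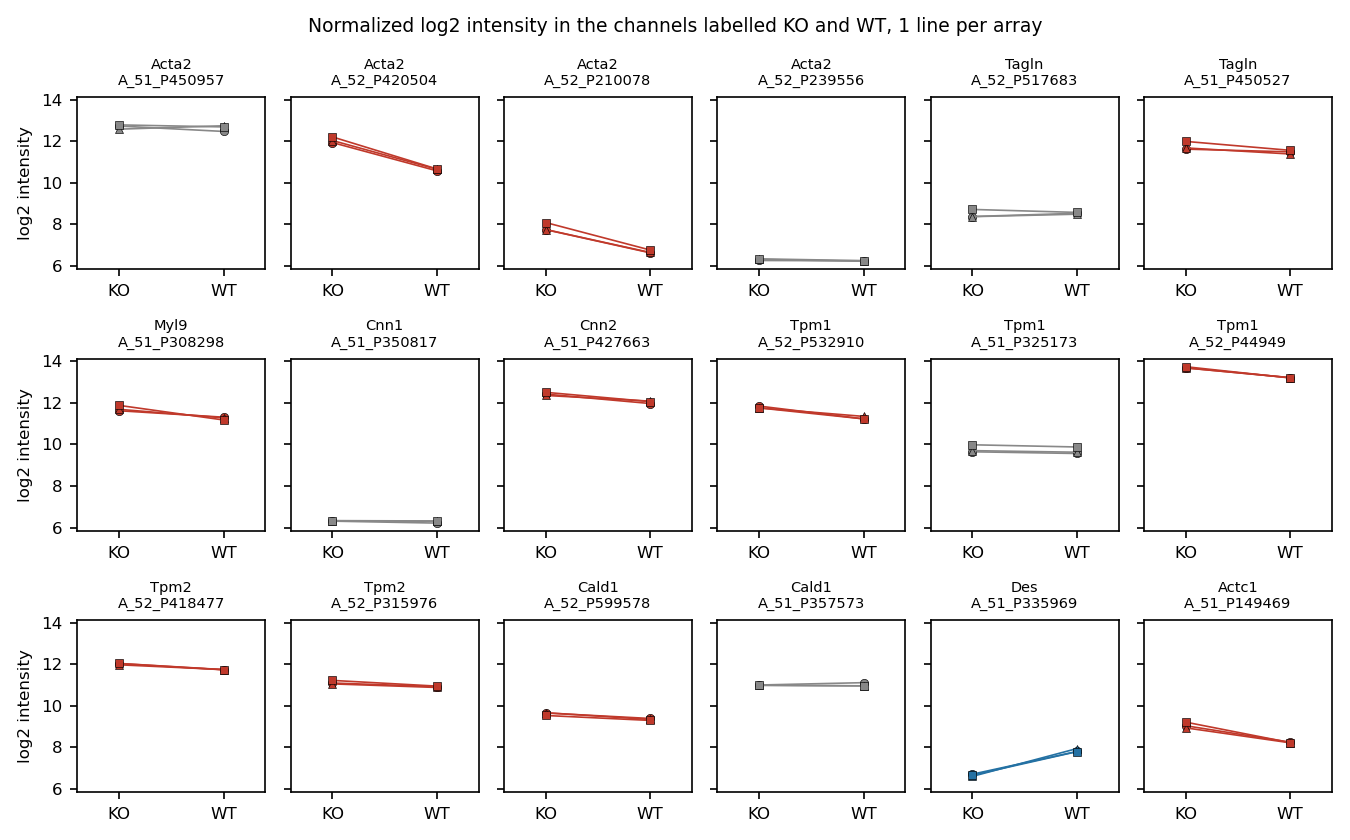
Normalized log2 intensity (y axis) of the 18 tested probes in the channels labelled KO (left) and WT (right), with 1 line per array; red marks higher, blue lower and grey no call. Acta2 A_52_P420504, A_52_P210078 and Actc1 step down toward WT on all 3 arrays, Des steps up, and levels of different probes are not comparable with each other.

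Myl9, the regulatory light chain of smooth muscle and non-muscle myosin, had log2 intensities of 11.61, 11.68 and 11.87 in the RNA labelled KO, against 11.30, 11.27 and 11.17 in the RNA labelled WT. The groups did not overlap. Its log2 ratio was 0.47 ± 0.20 (limma, adjusted p = 0.00072), and it was -0.00037 with median centring (adjusted p = 0.998). The array of replicate 3 gave the highest ratio, 0.70, and the other arrays 0.31 and 0.41.

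The tropomyosins wind along actin filaments and control the access of myosin. Tpm1 had 3 probes. A_52_P532910 was at 11.84, 11.75 and 11.75 in the RNA labelled KO, against 11.22, 11.34 and 11.22 in the RNA labelled WT, a log2 ratio of 0.52 ± 0.10 (limma, adjusted p = 4.5e-05) that was 0.04 and not past the threshold with median centring. A_52_P44949 was at 13.67, 13.67 and 13.73 in the RNA labelled KO, against 13.20, 13.20 and 13.19 in the RNA labelled WT, a log2 ratio of 0.49 ± 0.04 (limma, adjusted p = 1.5e-05), with -0.064 under median centring. Neither probe's groups overlapped. The third probe, A_51_P325173, lies between them on the gene and was at 0.09 ± 0.02, the same sign on every array but not past the threshold (limma, adjusted p = 0.062), with -0.31 under median centring (adjusted p = 0.020). The array annotation gives this probe a different transcript record from the one that the other Tpm1 probes share.

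Both probes of Tpm2, the beta-tropomyosin gene, were higher in the RNA labelled KO on every array. A_52_P418477 had a log2 ratio of 0.28 ± 0.04 (limma, adjusted p = 0.00038) and A_52_P315976 one of 0.21 ± 0.06 (limma, adjusted p = 0.0025), and with median centring they were at -0.21 and -0.25. The second did not pass the threshold with the scanner's processed signals (adjusted p = 0.085) or the authors' deposited table (adjusted p = 0.075). Of the paralogs used outside muscle, Tpm4 was at 0.22 ± 0.03 (limma, adjusted p = 0.0011) and Tpm3 at -0.02 ± 0.02 (limma, adjusted p = 0.68).

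Calponins bind actin and restrain the myosin ATPase. Cnn1, the calponin of differentiated smooth muscle, had log2 intensities of 6.31, 6.32 and 6.33 in the RNA labelled KO, against 6.21, 6.31 and 6.32 in the RNA labelled WT. The groups overlapped, and its ratio was 0.04 ± 0.04 (limma, adjusted p = 0.36). These levels were near the lower end of the scale, where the offset draws ratios toward 0. The Cnn1 ratio was 0.09 with an offset of 10 and -0.05 with the scanner's processed signals, not past the threshold in either. Cnn2, the more widely expressed calponin, was at 12.41, 12.35 and 12.50 in the RNA labelled KO, against 11.96, 12.07 and 12.05 in the RNA labelled WT. Its groups did not overlap, and its ratio was 0.39 ± 0.10 (limma, adjusted p = 0.00021), with -0.11 under median centring. Cnn3, the third calponin gene, was at -0.07 ± 0.04 (limma, adjusted p = 0.14).

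Tagln encodes transgelin, also called SM22-alpha, an actin-bundling protein used as an early marker of smooth muscle. Its probe A_51_P450527 was at 11.62, 11.68 and 11.99 in the RNA labelled KO, against 11.49, 11.38 and 11.56 in the RNA labelled WT. The groups did not overlap and the ratio was positive on each array, although the lowest level labelled KO differed from the highest labelled WT by less than the spread between arrays. Its mean was 0.28 ± 0.15 (limma, adjusted p = 0.0034), and it did not pass with the background fitted on all spots (adjusted p = 0.072), the scanner's processed signals (adjusted p = 0.079), the authors' deposited table (adjusted p = 0.059) or median centring, where it was -0.20. The upstream Tagln probe, A_52_P517683, was at -0.15, -0.12 and 0.14, with a mean of -0.04 ± 0.16 (limma, adjusted p = 0.57).

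Cald1 encodes caldesmon, which binds actin, myosin and calmodulin. A_52_P599578 was at 9.65, 9.67 and 9.53 in the RNA labelled KO, against 9.39, 9.34 and 9.30 in the RNA labelled WT, without overlap. Its log2 ratio was 0.28 ± 0.05 (limma, adjusted p = 0.00042), with -0.12 under median centring. A_51_P357573, which lies 20364 bases downstream, was at -0.11, 0.03 and 0.03 and did not pass (limma, adjusted p = 0.73).

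Desmin, the intermediate filament protein of muscle, was the single gene of the 10 that was lower in the RNA labelled KO. Probe A_51_P335969, whose sequence is printed above, had log2 intensities of 6.71, 6.61 and 6.67 in the RNA labelled KO, against 7.81, 7.94 and 7.80 in the RNA labelled WT. The groups did not overlap, and the gap between them was far larger than the spread within either. The log2 ratios were -1.09, -1.33 and -1.13, with a mean of -1.19 ± 0.13 (SD, n = 3), or 2.27-fold lower with label KO (limma, adjusted p = 8.8e-07). It was spotted 10 times per array, of which 8 to 10 spots were kept, and the SD between them within an array was 0.052 to 0.080. Of all tested probes, 95 (0.357%) were at least as low. The sign held under every alternative tried, but the size did not: it was -0.25 with the background fitted on all spots, -1.69 with an offset of 10 and -2.15 with the scanner's processed signals.

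Of the 10 genes, 5 had several tested probes, and in 4 of them the probes gave different ratios. The difference between 2 probes of 1 gene name was therefore tested on the 3 arrays for all 11714 such pairs on the array, a test chosen after the values had been seen. Of the 12 member pairs, which share probes and of which 6 are Acta2 pairs, 9 differed (limma, adjusted p under 0.05 over all pairs). Over all pairs 31.6% differed, a share that was 5.08% with the scanner's processed signals, where 6 member pairs differed, and 41.4% with median centring, where 8 did. The median absolute difference was 0.37 over the member pairs and 0.10 over all pairs, whose 95th percentile was 0.37.

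The largest member differences lay within Acta2. A_52_P420504 minus the exon-spanning A_51_P450957, 10130 bases upstream, was 1.10, 1.54 and 1.44 on the 3 arrays, with a mean of 1.36 ± 0.23 (limma, adjusted p = 3.6e-05). The downstream A_52_P239556 minus A_52_P420504, 865 bases apart, was -1.36 ± 0.08 (limma, adjusted p = 2.9e-06). The neighbours A_52_P210078 and A_52_P420504 differed by -0.25 ± 0.03 (limma, adjusted p = 0.0052), but the sign of this difference depended on the processing. An offset of 10 put A_52_P210078 at 1.60 and A_52_P420504 at 1.45, and median centring put them at 1.01 and 0.96. The scanner's signals and the authors' values both gave 1.97 and 1.43. Fitting the background on all spots gave 0.28 and 1.30. Which neighbour had the higher ratio is therefore not settled. The high Acta2 ratio was thus measured by a pair of probes within 363 bases, with probes on both sides of them near 0. The downstream one, A_52_P239556, lay near the lower end of the scale, where the offset draws ratios toward 0. Its ratio was 0.19 with the scanner's processed signals and 0.20 with the authors' deposited table, not past the threshold in either. Its value therefore cannot show where the higher ratio ends. Of the other probes on the array, A_52_P473172, which has no gene symbol, matched a member probe in sequence. It shared 33 of 36 aligned bases with A_51_P450957 and was at 0.19 ± 0.20 (limma, adjusted p = 0.046). Binding of other actin transcripts to these probes was not tested.

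Tagln, Tpm1 and Cald1 also had pairs that differed. Their probes are shown to let them be placed, with the upstream probe first and 30 or 60 bases of each. Downstream minus upstream, Tagln differed by 0.33 ± 0.07 over 819 bases (limma, adjusted p = 0.0024) and Cald1 by -0.29 ± 0.09 over 20364 bases (limma, adjusted p = 0.0041). In Tpm1 the outer probes, 10767 bases apart, differed by -0.02 ± 0.11 (limma, adjusted p = 0.76), and the middle probe minus the upstream one was -0.43 ± 0.10 (limma, adjusted p = 0.0010). The downstream Tpm1 probe minus the middle one was 0.41 ± 0.03 (limma, adjusted p = 0.00064). The Tpm2 probes differed by -0.07 ± 0.05 (limma, adjusted p = 0.27).
Tagln A_52_P517683: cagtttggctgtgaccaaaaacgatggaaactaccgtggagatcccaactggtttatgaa
Tagln A_51_P450527: ctttgaaggagacccagcccagcctctaca
Tpm1 A_52_P532910: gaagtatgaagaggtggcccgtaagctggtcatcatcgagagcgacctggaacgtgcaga
Tpm1 A_51_P325173: atcagcgaggagctggaccacgctctcaac
Tpm1 A_52_P44949: cttcatagagtttaggcatgcagtttgctt
Cald1 A_52_P599578: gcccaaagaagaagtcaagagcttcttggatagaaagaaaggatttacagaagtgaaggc
Cald1 A_51_P357573: tgaatcacatttagataacccaactatgta

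**Figure D3:**
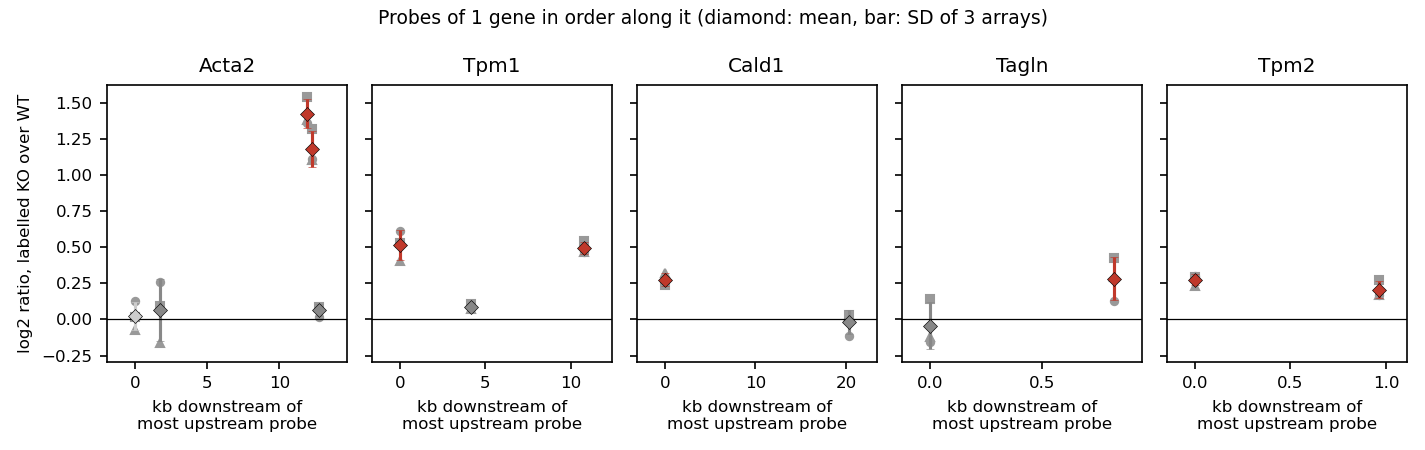
Log2 ratio of labelled KO over WT (y axis) against distance in kilobases from the most upstream probe (x axis) for the 5 genes with several tested probes; grey symbols are arrays, diamonds with bars are means and SD, and red marks higher, grey no call and light grey not tested. In Acta2 the pair of high probes stands between probes near 0, of which the most upstream and the most downstream are dim. In Tpm1 the middle probe is lower than both outer ones, and both Tpm2 probes lie together.

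Promoters of the members were read from the RefSeq promoter table on build GRCm38.p6, which holds 250 bases before to 50 after each gene start. They are shown because the members include known SRF targets. Entries were found for 9 of the 10 genes. The CArG box, searched on both strands, was present in Actc1, Myl9 and Cnn2 and in 1.63% of all 32851 entries. With 1 core letter changed it was present in Acta2, Actc1 and Myl9 and in 8.50% of all entries. A match describes the letters in the window and is not a measured site. The stretches below carry the box in capitals, at 47, 161 and 56 bases before the start of Actc1, Myl9 and Cnn2. Acta2 had 2 boxes with 1 changed letter, and the first is shown, at 84 bases before its start. The stretches lie at chr2:114052876-114052962 (minus strand), chr2:156775263-156775352 (plus), chr10:79988504-79988593 (plus) and chr19:34255408-34255497 (minus).
Actc1 promoter: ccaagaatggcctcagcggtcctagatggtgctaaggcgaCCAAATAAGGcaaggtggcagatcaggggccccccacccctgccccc
Myl9 promoter: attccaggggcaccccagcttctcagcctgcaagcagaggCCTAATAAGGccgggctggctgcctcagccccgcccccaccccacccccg
Cnn2 promoter: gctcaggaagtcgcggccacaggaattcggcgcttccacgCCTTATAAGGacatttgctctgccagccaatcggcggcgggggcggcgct
Acta2 promoter: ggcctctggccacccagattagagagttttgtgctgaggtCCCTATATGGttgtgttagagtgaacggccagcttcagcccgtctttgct

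Other genes of the same pathways were described by the brightest tested probe of each gene, for which 46.7% of all gene names passed the threshold, 21.9% higher and 24.8% lower. By that rule 6 of the 10 member genes were higher, 1 was lower and 3 did not pass, since Acta2 is then represented by its exon-spanning probe. Of 16 other smooth muscle genes 13 were tested, and 10 were higher, 1 lower and 2 short of the threshold, at a median log2 ratio of 0.31. With median centring 4 were higher and 4 lower. Over all 26627 tested probes that setting gave 1160 higher and 13071 lower, the background for every list count under median centring. Ppp1r12b, a myosin phosphatase subunit, was at 1.12 ± 0.05. Mylk, the kinase that phosphorylates the myosin light chain, was at 0.83 ± 0.09. Smoothelin (Smtn), a structural protein of contractile smooth muscle named after its value was seen, was the 1 lower gene at -0.66 ± 0.10. Slmap and Myh11 are also named after their values were seen. Slmap is counted as short of the threshold, but 2 other probes of it were lower. Myh11 is counted as higher at 0.11 ± 0.05 (limma, adjusted p = 0.041), with levels near the lower end of the scale.

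Of 14 genes of SRF, its cofactors and its targets, 12 were tested, and 8 were higher, 1 lower and 3 short of the threshold, at a median of 0.21, against 1 higher and 5 lower with median centring. Fhl2, a LIM-domain cofactor, was at 1.18 ± 0.02, vinculin (Vcl), which links actin to adhesions, at 0.59 ± 0.05, and Ccn1, a matricellular SRF target, at 0.53 ± 0.12. Srf itself was at 0.17 ± 0.03 (limma, adjusted p = 0.0040). Its cofactor Mkl1 was at 0.27 ± 0.08 (limma, adjusted p = 0.00093) and Mkl2 at 0.09 ± 0.04 (limma, adjusted p = 0.064). Myocardin (Myocd), the cofactor restricted to cardiac and smooth muscle, was not well above background in either channel. Egr1, an immediate early gene named after its value was seen, was the 1 lower gene at -0.29 ± 0.11.

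Non-muscle contractile genes were divided: of 18 tested, 8 were higher, 4 lower and 6 short of the threshold, at a median of 0.05, and with median centring 0 were higher and 12 lower. The crosslinker Actn4 was at 0.47 ± 0.03 and the phosphatase subunit Ppp1cb at -0.29 ± 0.02. Myl6, the essential myosin light chain, is counted among the higher genes but was saturated on all 3 arrays in the WT channel and is given no value. Of 18 striated muscle genes 9 were tested, and 2 were higher, 3 lower and 4 short of the threshold, at a median of -0.09, against 1 and 3 with median centring. Acta1, at the value above, Myh7, a slow and cardiac myosin heavy chain, at 0.33 ± 0.07, and Tnnt1, slow troponin T, at -0.25 ± 0.04 were the farthest from 0. Of the intermediate filament genes and desmin partners, 7 of 8 were tested, and 4 were higher and 3 lower, at a median of 0.36, against 3 and 3 with median centring. Cryab, a chaperone of desmin, was at 0.71 ± 0.08, synemin (Synm) at 0.64 ± 0.12 and syncoilin (Sync) at 0.44 ± 0.10, all opposite in sign to Des. The 3 lower genes, named after their values were seen, had the sign of Des. They were Plec at -0.37 ± 0.09, Vim at -0.21 ± 0.07 and Nes at -0.11 ± 0.02, though another Plec probe was higher.

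**Figure D4:**
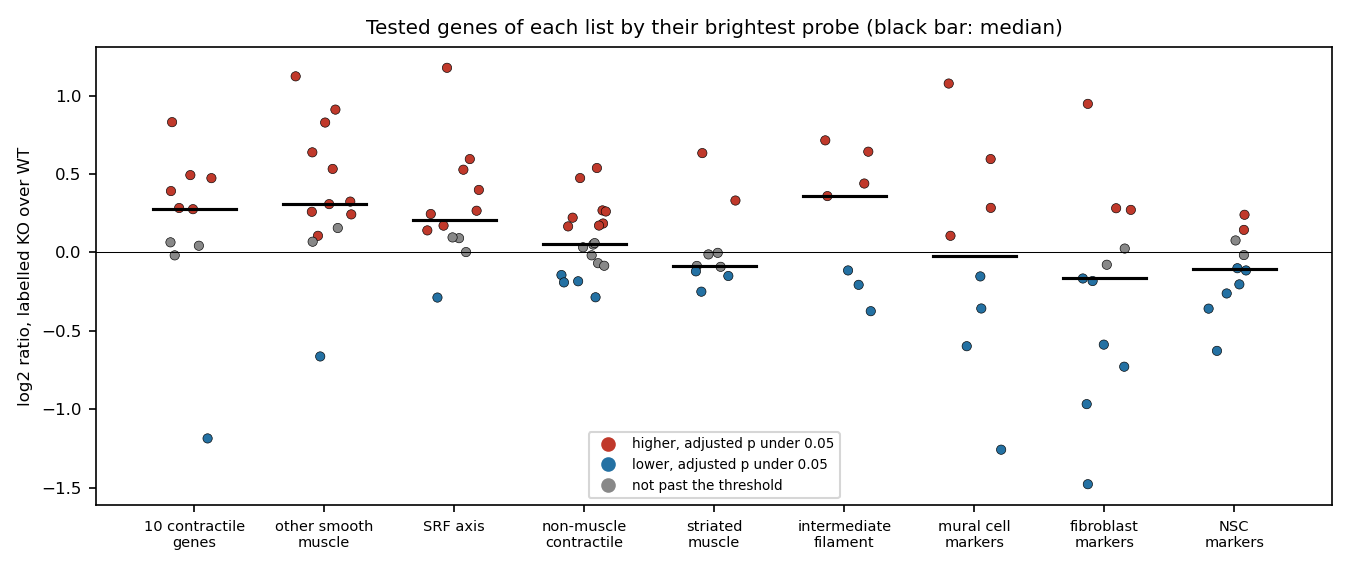
Log2 ratio of labelled KO over WT (y axis) of the brightest tested probe of each gene, by list (x axis), with the median as a black bar; red marks higher, blue lower and grey no call. The medians are 0.28 for the 10 contractile genes and 0.31 for other smooth muscle genes. They are -0.02 for mural cell and -0.17 for fibroblast markers. With median centring higher and lower genes are even in the other smooth muscle list, at 4 each, against 1160 higher and 13071 lower over all tested probes. Myl6, Col1a1 and Col3a1 are saturated in WT.

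Markers of other cell types that express these genes were set beside the result. Of 9 markers of mural cells, the pericytes and smooth muscle cells of vessels, 8 were tested, with 4 higher and 4 lower at a median of -0.02. Their summed level, in which bright probes weigh most, was 16749 to 18420 in the RNA labelled KO, against 19425 to 20387 in the RNA labelled WT, in units of normalized intensity. The mural markers farthest from 0 were Cspg4 at -1.26, Notch3 at 1.08 and Mcam at -0.60, and Abcc9 was not well above background in either channel. Myh11 is in both the mural and the other smooth muscle list, and Nes in both the NSC and the intermediate filament list. Of 11 fibroblast markers, 3 were higher, 6 lower and 2 short of the threshold, and their summed level was 152732 to 156897 in the RNA labelled KO, against 196706 to 214581 in the RNA labelled WT. Col1a1 and Col3a1 were saturated on all 3 arrays in the WT channel, so that the fibroblast sum labelled WT is not a full measurement. Neural crest markers summed to 7909 to 8662 in the RNA labelled KO, against 13830 to 14831 in the RNA labelled WT, with 1 of 5 higher and 2 lower. Ngfr, at a log2 ratio of -2.07 ± 0.11, stood farthest from 0 among them, while Tfap2a was at 0.43 and Sox10 and Foxd3 did not pass. Pluripotent markers summed to 548 to 573 in the RNA labelled KO, against 538 to 552 in the RNA labelled WT. Of 6 such markers 3 were tested, with 1 higher and 2 short of the threshold. Dppa5a was the higher one at 0.17 ± 0.06 (limma, adjusted p = 0.0062), and Nanog and Zfp42 were not well above background. Pou5f1, also not tested, was well above background on 2 arrays in the WT channel and on 0 in the KO channel. The summed level of the 10 contractile genes was 37606 to 41204 in the RNA labelled KO, against 30684 to 31742 in the RNA labelled WT. All sums were taken after loess only, and bright contractile probes weigh most in the last one. With median centring, the bright probes Tpm1 A_52_P44949 and Acta2 A_51_P450957 were at log2 ratios of -0.064 and -0.46. The part of these cell types in the result was not tested, and more cells of a type and more RNA per cell cannot be told apart in bulk RNA.

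**Figure D5:**
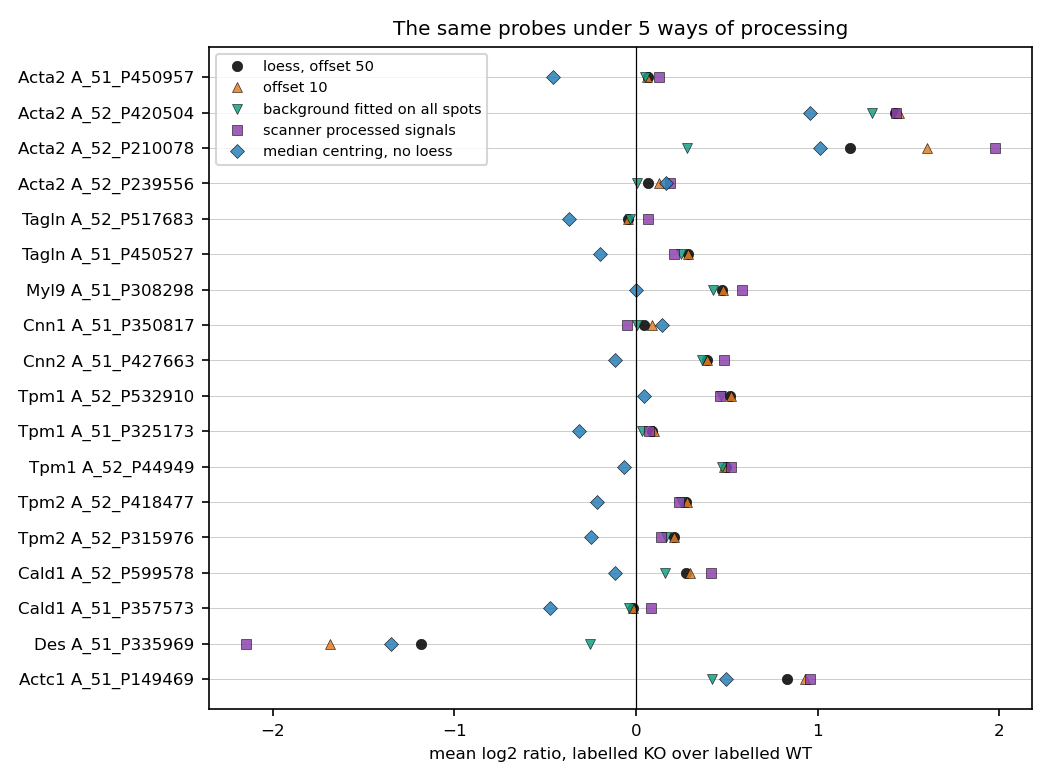
Mean log2 ratio of labelled KO over WT (x axis) of the 18 tested probes (rows) under 5 ways of processing (symbols). Acta2 A_52_P420504 stays between 0.96 and 1.45 and Des stays below 0 but runs between -0.25 and -2.15; the blue diamonds of median centring lie to the left for the bright probes, where 9 change sign.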

How the data were processed

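Total RNA of 3 biological replicates was measured on 3 2-colour Agilent arrays on 1 slide. Per the file headers, spot and background signals are intensity values from Agilent Feature Extraction 9.5.3.1, and its log ratio is on the log10 scale, red over green, used to check direction. The authors' deposited table was read as log2 of labelled KO over WT, because its columns correlated with that ratio at r = 0.999 or more; its medians were 0.0276, and its scale, centring and processing are not given in the sources used here.

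Mean signals and median backgrounds were corrected with normexp (offset 50) in limma 3.58.1 under R 4.3.3, fitted on spots without outlier marks, a choice that earlier work made after seeing the data. Loess was applied array by array, giving control spots weight 0, the ratio was turned to KO over WT, and unmarked spots of a probe were averaged. The offset draws ratios of dim probes toward 0. Tested probes were those well above background in 1 channel on all 3 arrays, which kept 26627 probes. The mean of 3 log2 ratios was set against 0 by a two-sided limma test (lmFit, eBayes, 2 residual degrees of freedom) and Benjamini-Hochberg adjustment over all tested probes. Channel levels were scaled with Aquantile. Precision is limited by having 3 arrays. The share of probes well above background was 63.6% to 65.0% for label KO and 65.5% to 68.8% for label WT. The procedure was tested on simulated data.

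Members and lists were chosen with earlier results of these data known. All member probes were named, and, from each other list, the paralogs and SRF regulators and the 3 genes past the threshold with the largest absolute ratio; 1 gene that this rule names is not reported here. Old symbols were matched through RefSeq synonyms (Cyr61 to Ccn1, Dmn to Synm); Mkl2 was matched to the array name Gt4-1 in the same way. Probe sequences were compared with BLASTN 2.17.0. Alternatives covered the background fit, offset, centring, signals, filters, 1 probe per gene name, each replicate left out, and the pairing of the channels. The ratio within an array pairs the 2 RNAs of the same replicate number.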

Additional observations from a re-analysis of the deposited data

How the results depend on the processing

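Of the results for single probes of the 10 genes under the alternatives, 9 changed sign with a call on at least 1 side, 6 fell short of the threshold and 3 newly passed it. These 9 came with median centring in place of loess: Acta2 A_51_P450957 was then at -0.46, Tagln A_51_P450527 at -0.20, Myl9 at -0.00037, Cnn2 at -0.11, Tpm1 A_51_P325173 at -0.31, Tpm1 A_52_P44949 at -0.064, Tpm2 A_52_P418477 at -0.21, Tpm2 A_52_P315976 at -0.25 and Cald1 A_52_P599578 at -0.12. Probes without a call crossed 0 in 9 further results, Tagln A_52_P517683, Cald1 A_51_P357573 and Cnn1 with the scanner's signals and the authors' deposited table, and Tagln A_52_P517683, Cald1 A_51_P357573 and Acta2 A_51_P450957 without replicate 1, at -0.051 to 0.083. The median of the member probes was -0.11 with median centring, against -0.22 for all tested probes, with 3 member probes higher and 5 lower and 1160 and 13071 over all probes. With the background fitted on all spots, 2690 probes were higher and 3670 lower, the member median was 0.21, and 2 striated muscle genes passed. The member median was 0.22 with the scanner's processed signals and 0.23 with the authors' deposited table. With 1 probe per gene name, 6 member probes were higher, by the construction of that setting. Leaving out each replicate in turn gave 11 to 12 higher and 1 lower member probes and a member median between 0.24 and 0.27. Over all tested probes it gave 4063 to 5332 higher and 4599 to 5780 lower. Without the pairing of channels within an array (no replicate block), 3675 probes were higher and 4096 lower, and the member counts stayed at 11 and 1. The count of member probe pairs that differed was 6 to 9 of 12, and the share over all pairs ran from 4.6% with the authors' deposited table to 41.4% with median centring. The Acta2 probes A_52_P420504 and A_52_P210078, Actc1 and Des kept sign and threshold under each alternative that gave them a value. The causes of these shifts were not tested. There were 3 arrays, 1 slide and no dye swap.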
